A study of Mus musculus with 6 samples.

Results

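The genes described here are 36 interferon-stimulated genes and immune GTPases, measured in NKT1 cells of the mouse thymus that carry or lack the CD4 coreceptor. They were found by symbol in a table of 47643 genes, where the 36 symbols match 37 rows because Gbp6 stands under 2 Ensembl identifiers. Of these rows, 23 belong to the response to type I interferon (21 effector genes, Irf7 and Irf9), 12 to the GTPases induced by interferon gamma, and 2 to the regulatory factors Irf1 and Irf8. All 37 rows passed the filter on low counts, which kept 12760 genes for testing. The 6 libraries come from wild-type BALB/c thymus, as 3 libraries of CD4-positive and 3 of CD4-negative NKT1 invariant natural killer T (iNKT) cells. The iNKT cell is a T cell whose nearly constant receptor sees lipids on CD1d, and NKT1 is its T-bet-expressing, interferon-gamma-producing branch. The labels give no treatment, age or gate, and do not say whether a library holds pooled animals. Nor do they say that replicates come from different mice, so each p-value rests on library-to-library spread that could be technical.

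Type I interferons (alpha, beta) and interferon gamma act through different receptors. The first acts through a complex with IRF9 on the interferon-stimulated response element (ISRE) and induces antiviral effectors such as the IFIT, OAS and MX proteins. The second acts through the gamma-activated site (GAS), induces IRF1, and through both raises guanylate-binding proteins (GBP) and immunity-related GTPases (IRG), which attack vacuoles that hold pathogens. Thymus is known to make type I interferon without infection, and iNKT cells are known as a source of interferon gamma.

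Levels are given as CPM, a gene's count relative to its library's total after TMM scaling (a factor per library that corrects for composition), and group values as mean ± SD with n = 3 libraries per group. Differences are log2 CD4-positive minus CD4-negative, with the standard error (SE), from edgeR's quasi-likelihood test with Benjamini-Hochberg adjustment over all 12760 genes. Library totals were 40480468 to 53145898 counts, and 3 counts, the limit that a count of 0 allows by counting error alone, are 0.0555 to 0.0783 CPM. Cd4, the sort marker, stood at 401 to 508 CPM in the CD4-positive and 10.9 to 41.2 CPM in the CD4-negative libraries. Of the 8 NKT1 markers all were tested, with summed levels of 2976 to 4096 CPM. Ccl5 was lower in CD4-positive cells (92.6 to 98.9 against 414 to 494 CPM, adjusted p = 0.00522 by edgeR), Zbtb16 stood at 70.2 to 151 against 60.03 to 63.7 CPM without overlap, and the other 6 overlapped, Tbx21 among them at 297 to 639 CPM. CD4-negative replicate 3 stood apart, with 13787 genes counted against 15293 to 16267 in the other 5 libraries and a mean correlation of 0.946 with them, against 0.963 to 0.970. Mitochondrial genes took 1.33% of its counts and 1.35% of those of CD4-positive replicate 1, against 3.51% to 5.19% in the other 4 libraries. CD4-positive replicate 1 also differed more from the others of its group (chi-square per degree of freedom 299 and 311) than they did from each other (93.1). Values without a library are given beside many of the differences it moved.

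The promoter stretches below are shown because the ISRE is a response element of interferon-stimulated genes. RefSeq promoter windows (GRCm38.p6, 250 bases before to 50 after an annotated start) were found for 26 of the 36 genes. The ISRE was searched on both strands as GAAANN followed directly by GAAA, and the GAS as TTCNNNGAA; matches of the ISRE can overlap each other. An ISRE was found in 16 of the 26 genes (61.5%), against 3.99% of 27025 genes in the promoter table. It was found in all 8 GTPase genes with a window, in 8 of 14 type I effector genes, and in 0 of 4 regulatory factor genes. A GAS was found in 5 of the 8 GTPase genes, 3 of the 14 effector genes (Bst2, Ifit2 and Oas1a) and 2 of the 4 regulatory factor genes (Irf1 and Irf8), against 9.55% of all genes. A match describes the letters of the window and does not show that a factor binds there. The promoter windows, transcripts and exon lengths used here are those of the reference genome and were not checked against BALB/c sequence. Each stretch reads 5′ to 3′ on the strand of its gene, with the ISRE matches in capitals (read as TTTC, 2 further bases, TTTC where the match is on the other strand). None of the stretches overlaps an exon in GENCODE M21. Those of Irgm2 and Tgtp1 lie in introns of their own genes, and those of Tgtp1 and Tgtp2 in an intron of the gene model Olfr56.
Isg15, chr4:156200855-156200916, minus strand: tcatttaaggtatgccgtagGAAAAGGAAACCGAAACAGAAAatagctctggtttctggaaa
Ifit1, chr19:34640765-34640833, plus strand: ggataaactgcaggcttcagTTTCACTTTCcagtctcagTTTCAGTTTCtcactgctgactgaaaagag
Ifit3, chr19:34583353-34583436, plus strand: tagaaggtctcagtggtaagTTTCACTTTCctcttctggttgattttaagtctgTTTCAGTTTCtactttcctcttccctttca
Oas3, chr5:120777705-120777754, minus strand: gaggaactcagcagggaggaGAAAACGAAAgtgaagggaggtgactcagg
Gbp7, chr3:142530263-142530312, plus strand: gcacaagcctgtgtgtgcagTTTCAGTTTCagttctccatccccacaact
Igtp, chr11:58199502-58199551, plus strand: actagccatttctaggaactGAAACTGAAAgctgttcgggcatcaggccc
Irgm2, chr11:58214893-58214942, plus strand: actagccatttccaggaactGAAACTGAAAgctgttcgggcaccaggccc
Tgtp1, chr11:48992294-48992343, minus strand: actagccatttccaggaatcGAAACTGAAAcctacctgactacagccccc
Tgtp2, chr11:49064253-49064302, minus strand: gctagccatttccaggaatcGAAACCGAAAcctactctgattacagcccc

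The stretch of Ifit3b (chr19:34607749-34607832, plus strand) has all 84 bases in common with that of Ifit3. Compared position by position without gaps, Igtp and Irgm2 have 48 of 50 bases in common and Tgtp1 and Tgtp2 have 38 of 50. In Tgtp2 an extra t after cctac shifts the bases that follow, so the count of 38 understates how alike the Tgtp stretches are. Isg15, a ubiquitin-like modifier, has 3 overlapping ISRE matches, the most among the 26 genes with a window. These families arose by local duplication, and the copies are close in their transcripts too. Of the distinct 50-base windows in the transcripts of Tgtp2, 86.6% also occur in another gene, of Tgtp1 81.2%, of Oas1a 57.6%, of Ifit3 51.2% and of Ifit3b 45.0%. The first Gbp6 row (ENSMUSG00000079362, called Gm43302 in GENCODE M21, a gene model that spans Gbp10 and Gbp6) shares 100% of its windows, and the second (ENSMUSG00000104713) 70.7%. The estimated counts of all these rows except Oas1a were fractional in all 6 libraries, so their reads were divided between copies by the authors' estimate and the split between copies is uncertain.

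Per kilobase of merged exons, which allows levels of different genes to be set side by side, the 36 genes spanned a wide range (mean of all 6 libraries). Ifi27l2a, a small mitochondrial protein, was highest at 175 CPM per kb, followed by the GTPase Igtp at 92.2. Gbp2, Tgtp2 and Bst2 lay close together at 53.8, 52.9 and 52.9 CPM per kb, and Irf1 at 47.3. The lowest were Oasl2 (0.10), Iigp1 (0.53), Oas2 (0.63), Mx1 (1.07), Mx2 (1.17) and the radical SAM enzyme Rsad2, or viperin (1.32). Within the IRG family the mean of Iigp1 was thus far below those of Irgm1 (14.2), Tgtp1 (26.0), Tgtp2 and Igtp. Within the OAS family Oas3 (16.1) and Oas1a (15.4) were far above Oasl1 (1.70), Oas2 and Oasl2. The merged exons count every annotated transcript, so genes with long rare transcripts are set too low on this scale. Summed over all 37 rows, the members took 0.225% to 0.253% of a library's counts.

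No member passed the test between CD4-positive and CD4-negative cells (0 of 37 rows at an adjusted p under 0.05, where 27 of 12760 genes, or 0.212%, passed over the whole table). At an unadjusted p under 0.05 edgeR had 4 of 37 rows, against 4.44% of all genes: Ifi44, Iigp1 and both Gbp6 rows, all with higher CD4-positive levels. The same comparison in DESeq2 called 2 members, Ifi44 and Iigp1, among 162 genes called (0.886% of the genes with an adjusted p). In limma-voom 0 members were called, against 0.227% of all genes. The 2 groups of libraries did not overlap for 7 rows with higher CD4-positive values (Ifi44, Iigp1, Oasl1, Ifit2, Gbp3 and both Gbp6 rows), against 4.84% of all genes, and for 1 row with lower values (Oas3), against 4.57%. The log2 difference was above 0 in 28 of the 37 rows (median 0.10), and in 48.9% of all genes (median -0.01). The type I response genes (16 of 23 above 0, median 0.07) and the GTPases (10 of 12 above 0, median 0.21) are read apart below.

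**Figure D1:**
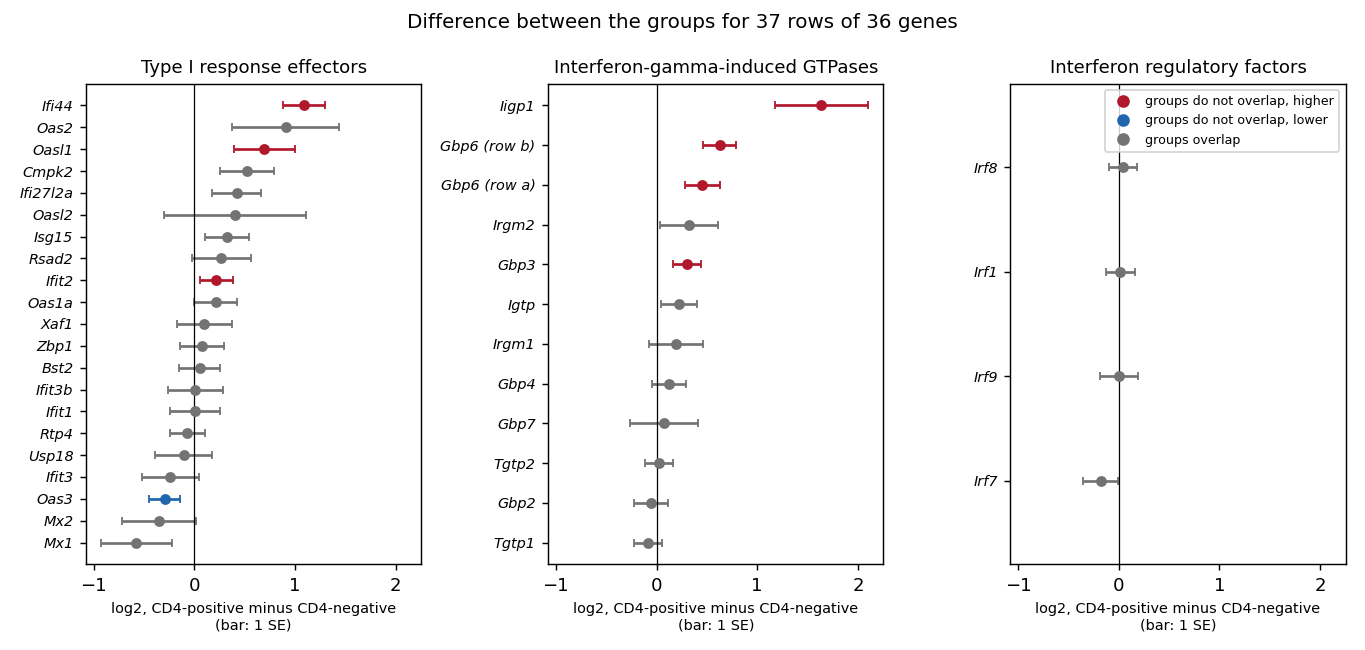
Log2 difference, CD4-positive minus CD4-negative, for the 37 rows in 3 classes (x axis, log2 scale; points are the edgeR estimates and bars 1 SE; Gbp6 row a is ENSMUSG00000079362 and row b ENSMUSG00000104713). Most points lie within 0.5 of 0; Ifi44 (1.09) and Iigp1 (1.64) lie farthest to the right and Mx1 (-0.57) farthest to the left, and no row passed the test over all genes.

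Among the type I effectors, Ifi44 had the largest log2 difference. Ifi44 encodes a cytoplasmic antiviral protein and lies on chromosome 3 from 151730922 to 151749960 (GRCm38, minus strand). It stood at 12.5, 17.9 and 18.7 CPM in CD4-positive replicates 1, 2 and 3 and at 7.08, 7.61 and 8.35 CPM in the CD4-negative libraries. Every CD4-positive library was above every CD4-negative library. The means were 16.4 ± 3.37 and 7.68 ± 0.64 CPM, a ratio of 2.13 (log2 1.09, SE 0.21, adjusted p = 0.136 by edgeR). DESeq2, run on all genes with a count, gave it an adjusted p of 0.00381. Over all alternatives its log2 difference stayed between 0.99 and 1.25, while its adjusted p ranged from 0.000826 to 0.707, the largest without CD4-positive replicate 2. Its promoter window held neither an ISRE nor a GAS as spelled above.

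The IFIT genes encode proteins that bind viral RNA lacking the host's cap marks, and all 4 members lie on chromosome 19 between 34550694 and 34650009. Ifit2 stood at 38.4, 46.6 and 41.5 CPM in the CD4-positive and 38.2, 38.3 and 32.2 CPM in the CD4-negative libraries. Its groups did not overlap, though CD4-positive replicate 1 and CD4-negative replicate 2 nearly met, with a log2 difference of 0.22 (SE 0.16, adjusted p = 1.0), or 0.14 without CD4-positive replicate 2 or CD4-negative replicate 3. Ifit3 was at 60.8, 48.3 and 52.4 CPM in the CD4-positive libraries and at 45.9, 51.1 and 93.6 CPM in the CD4-negative libraries. The highest value of Ifit3 was in CD4-negative replicate 3, and without that library its log2 difference turned from -0.24 to 0.15. Ifit1 had the same high library, with 47.2, 38.0 and 45.1 CPM against 33.8, 36.3 and 59.8 CPM. So did Ifit3b, with 25.9, 21.6 and 26.1 against 17.9, 20.1 and 35.2 CPM. The log2 differences of Ifit1 and Ifit3b were 0.01 (SE 0.25) and 0.01 (SE 0.27) with all libraries and 0.31 and 0.37 without CD4-negative replicate 3. Ifit2 was lowest in that library. Ifit3 and Ifit3b share windows with each other. Ifit1 shares 7.13% of its windows, with Ifit1bl2 and Ifit1bl1 alone, and Ifit2 shares 0%.

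**Figure D2:**
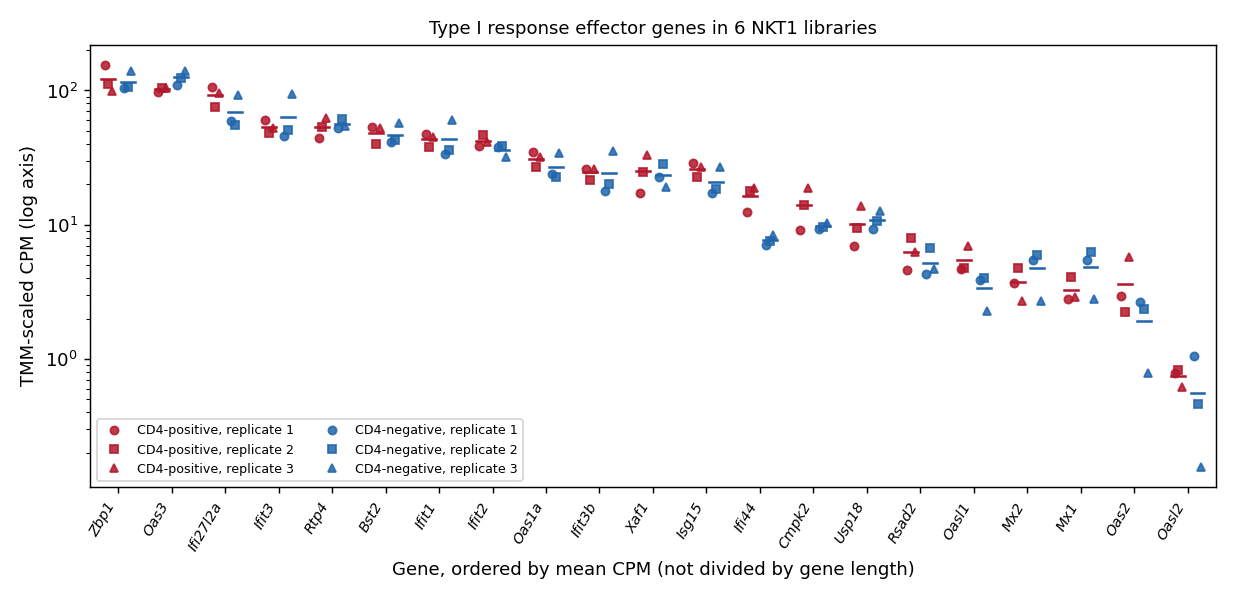
TMM-scaled CPM (y axis, log scale) of the 21 type I effector genes (x axis) in each of the 6 libraries; symbols mark replicates, colours the groups and short lines the group means. The groups overlap for most genes, Ifi44 is separated (12.5 to 18.7 against 7.08 to 8.35 CPM), and CD4-negative replicate 3 is the highest point for Ifit1, Ifit3 and Ifit3b and the lowest for Oasl1, Oas2 and Oasl2.

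The OAS genes encode enzymes and enzyme-like proteins that answer double-stranded RNA by making the signal for RNase L. Oas3, the highest of them per kilobase, was the only member whose CD4-positive libraries all lay below the CD4-negative ones. It stood at 97.7, 104 and 104 CPM against 111, 125 and 140 CPM (102 ± 3.63 and 125 ± 14.8, log2 -0.30, SE 0.15, adjusted p = 1.0). Oas1a went from 26.8 to 34.8 CPM in the CD4-positive and from 22.8 to 34.1 CPM in the CD4-negative libraries, with overlap. Oasl1, which lacks the enzymatic activity and restrains Irf7 translation, was at 4.71, 4.80 and 6.96 CPM against 3.85, 4.03 and 2.27 CPM. Its groups did not overlap (log2 0.69, SE 0.31, adjusted p = 1.0). Oas2 was low, at 2.94, 2.26 and 5.71 CPM against 2.65, 2.37 and 0.78 CPM, and its log2 difference of 0.91 (SE 0.53) was 0.06 in the libraries other than replicate 3 of each group. Oasl2 lay at 0.16 to 1.05 CPM over all libraries, the lowest of them 6 counts, and its log2 difference of 0.40 (SE 0.70) was -0.024 without CD4-negative replicate 3. The OAS members thus did not share a direction.

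Mx1 and Mx2 belong to a family of dynamin-like GTPases that act against influenza and other viruses. Mx2 is annotated as a polymorphic pseudogene in GENCODE M21, and the counts do not show whether either gene makes an intact protein in BALB/c mice. Mx1 stood at 2.82, 4.11 and 2.87 CPM in the CD4-positive and 5.47, 6.29 and 2.82 CPM in the CD4-negative libraries (log2 -0.57, SE 0.35, and -0.34 without CD4-negative replicate 2). Mx2 stood at 3.66, 4.78 and 2.72 CPM against 5.49, 6.0 and 2.69 CPM (log2 -0.35, SE 0.37, from -0.62 without CD4-negative replicate 3 to -0.14 without CD4-negative replicate 2). Both were higher in CD4-negative replicates 1 and 2 than in the other 4 libraries. Reads were in part shared between them, with fractional counts in 66.7% of libraries.

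Of the remaining effectors Zbp1, a sensor of Z-form nucleic acids that can start necroptosis, stood at 155, 112 and 99.9 CPM against 104, 106 and 139 CPM. Ifi27l2a was at 107, 75.8 and 95.4 CPM in the CD4-positive libraries and at 59.5, 55.1 and 93.0 CPM in the CD4-negative libraries. Only CD4-negative replicate 3 reached into the CD4-positive range, and without it the log2 difference of Ifi27l2a was 0.70 in place of 0.42 (SE 0.24, adjusted p = 1.0). Isg15 had the same arrangement, with 28.8, 22.6 and 26.9 CPM against 17.2, 18.5 and 26.9 CPM (log2 0.32, SE 0.22, and 0.55 without that library). Cmpk2, a mitochondrial nucleotide kinase next to Rsad2 on chromosome 12, was at 9.07, 14.1 and 18.7 CPM against 9.23, 9.57 and 10.4 CPM (log2 0.52, SE 0.27, and 0.26 without CD4-positive replicate 3). Its CD4-positive replicates 2 and 3 were above all other libraries. Rsad2 itself was at 4.59, 8.0 and 6.25 CPM against 4.26, 6.72 and 4.65 CPM, with overlap (log2 0.27, SE 0.29, and 0.057 without CD4-positive replicate 2). Rtp4, a chaperone-like antiviral protein, stood at 44.2, 53.7 and 62.1 CPM against 52.3, 61.0 and 54.8 CPM (log2 -0.07, SE 0.17). Bst2 (tetherin, which holds budding virus at the cell surface), the pro-apoptotic factor Xaf1 and Usp18, the protease that removes ISG15 and dampens the type I receptor, had log2 differences of 0.05, 0.10 and -0.10, each smaller than its SE. Over all libraries Bst2 ranged from 39.7 to 57.0, Xaf1 from 17.2 to 33.2 and Usp18 from 6.91 to 13.9 CPM.

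The log2 differences of the interferon regulatory factors lay between -0.18 and 0.05. Irf1, an activator induced by interferon gamma, stood at 180, 192 and 195 CPM in the CD4-positive and 198, 195 and 168 CPM in the CD4-negative libraries (log2 0.02, SE 0.14). Irf8 was the steadiest of all members, at 45.4, 43.2 and 46.3 CPM against 42.7, 42.4 and 45.7 CPM, so that its highest library was 1.09-fold its lowest. Irf9, the DNA-binding part of the type I complex, stood at 74.0, 83.3 and 105 CPM against 76.1, 84.3 and 101 CPM (log2 0.01, SE 0.19). Irf7, which amplifies type I interferon production, stood at 79.97, 80.4 and 106 CPM against 91.1, 98.8 and 112 CPM (log2 -0.18, SE 0.18, from -0.32 without CD4-positive replicate 3 to -0.091 without CD4-negative replicate 3). Irf7 and Irf9 were highest in replicate 3 of each group, and these are the 2 libraries whose names follow another scheme (R4). Both of these libraries were above the other 4 for Irf7, Irf8, Irf9, Usp18 and Ifit3b (5 of 37 rows, against 9.91% of all genes) and below them for Gbp7 and Mx2 (2 of 37 rows, against 11.9%). Irf7 overlaps Phrf1, and Irf9 overlaps Rnf31; the strand setting of the counting is not given in the sources used here.

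Bst2 and Irf8 also mark plasmacytoid dendritic cells. Of the other genes of the 9-gene dendritic cell list, Siglech was at 0 to 0.37 CPM, and Flt3 and Bcl11a had at most 3 counts in any library. Xcr1 stood at 4.65 to 7.24 CPM in the CD4-positive and 8.36 to 16.5 CPM in the CD4-negative libraries, and Itgax at 0 to 0.08 against 0.43 to 0.97 CPM. Ccr9 was at 2.32 to 13.9 against 1.999 to 5.08 CPM, highest in CD4-positive replicate 3, and Tcf4 at 1.35 to 1.89 against 0.95 to 1.87 CPM, both with overlap. Bst2 and Irf8 make up most of the list's sum of 92.9 to 126 CPM.

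The GTPases of the GBP family lie in clusters on chromosome 3 (Gbp2, Gbp3, Gbp7) and chromosome 5 (Gbp4, Gbp6) and coat pathogen vacuoles and bacteria. The Gbp6 rows had the lowest p of the family. The first row stood at 40.5, 42.0 and 46.5 CPM in the CD4-positive and 32.2, 35.6 and 26.3 CPM in the CD4-negative libraries (log2 0.45, SE 0.17, adjusted p = 0.913 by edgeR). The second row stood at 27.2, 28.9 and 23.6 CPM against 15.7, 16.6 and 19.4 CPM (log2 0.63, SE 0.17, adjusted p = 0.448 by edgeR). Neither row's groups overlapped, and since the rows share their reads they are not separate observations. Gbp3 was at 71.0, 78.6 and 73.6 CPM against 59.7, 63.2 and 58.2 CPM, again without overlap (74.4 ± 3.84 and 60.4 ± 2.56, log2 0.30, SE 0.14, adjusted p = 1.0).

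The other GBP members overlapped between the groups. Gbp4 stood at 232, 282 and 234 CPM against 247, 245 and 195 CPM (log2 0.12, SE 0.17, and 0.024 without CD4-negative replicate 3 or 0.028 without CD4-positive replicate 2). Gbp2 stood at 151, 129 and 118 CPM against 129, 127 and 157 CPM (log2 -0.05, SE 0.17). Gbp7 stood at 160, 215 and 112 CPM against 185, 187 and 90.3 CPM (log2 0.07, SE 0.34), so it was lower in replicate 3 of each group than in any other library. Without CD4-negative replicate 3 the log2 difference of Gbp7 was -0.19.

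**Figure D3:**
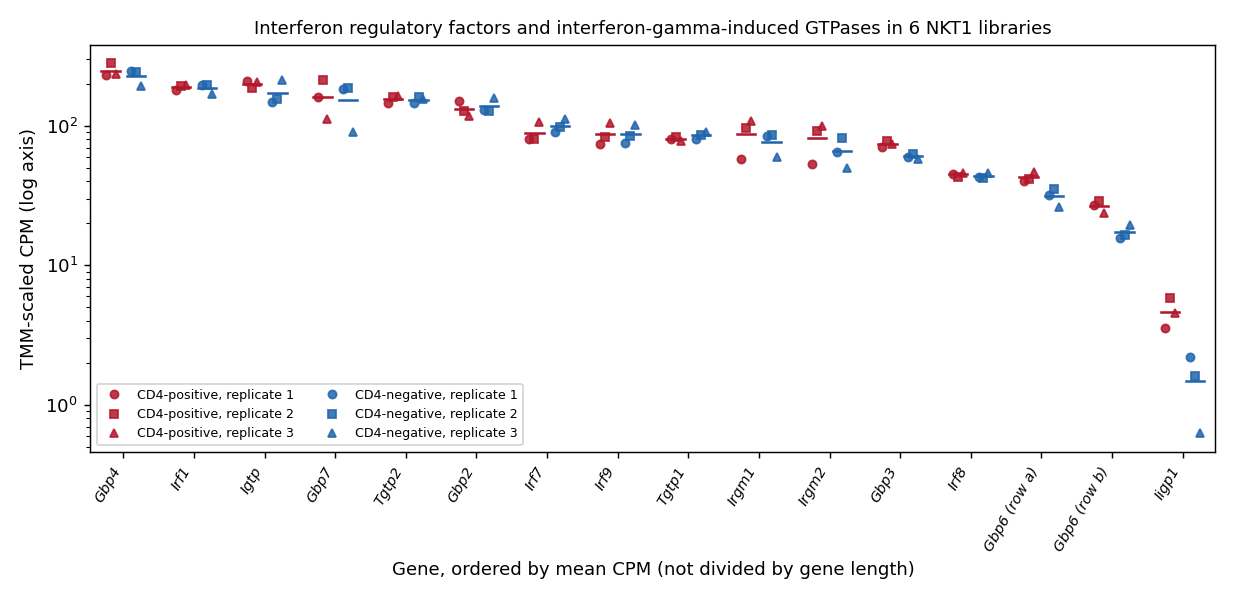
TMM-scaled CPM (y axis, log scale) of the 4 interferon regulatory factors and 12 GTPase rows (x axis) in each of the 6 libraries; symbols mark replicates, colours the groups and short lines the group means. Irf8, Tgtp1 and Tgtp2 vary by less than 1.16-fold over the 6 libraries, while Iigp1 runs from 0.63 to 5.82 CPM.

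The IRG members, GTPases that disrupt vacuoles of intracellular pathogens, had Igtp (Irgm3), Tgtp2 and Tgtp1 as their highest genes per kilobase. Iigp1, on chromosome 18 from 60376027 to 60392634, had the largest log2 difference of all members. It stood at 3.54, 5.82 and 4.57 CPM in the CD4-positive and 2.22, 1.61 and 0.63 CPM in the CD4-negative libraries, where the last value is 24 counts. Every CD4-positive library was above every CD4-negative library (4.64 ± 1.14 and 1.48 ± 0.80 CPM, a ratio of 3.13, log2 1.64, SE 0.46, adjusted p = 0.518 by edgeR). DESeq2, run on all genes with a count, gave an adjusted p of 0.0462. Without CD4-negative replicate 3, the lowest library, its log2 difference was 1.28.

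Tgtp2 was at 147, 160 and 164 CPM against 145, 161 and 156 CPM (log2 0.03, SE 0.14), and Tgtp1 at 81.0, 83.3 and 78.1 CPM against 80.9, 86.0 and 90.3 CPM (log2 -0.09, SE 0.14). These genes were among the steadiest members, next to Irf8. Igtp stood at 210, 187 and 205 CPM against 148, 156 and 212 CPM, where CD4-negative replicate 3 was the highest of all libraries (log2 0.22, SE 0.18, and 0.41 without it). Irgm2, whose printed stretch differs from that of Igtp in 2 of 50 bases and which overlaps Igtp in the annotation, stood at 53.5, 92.1 and 100 CPM against 65.0, 82.0 and 49.7 CPM. The order of libraries thus differed between them: CD4-negative replicate 3 was highest for Igtp and lowest for Irgm2. Igtp shares 11.8% of its 50-base windows with Irgm2, and Irgm2 6.79% of its windows with Igtp. Both had fractional counts in 100% of libraries, so the split of reads between Igtp and Irgm2 is in part uncertain. Irgm1, which regulates the other IRG proteins, was at 57.8, 96.5 and 109 CPM against 84.3, 86.3 and 60.1 CPM, low in CD4-positive replicate 1 and CD4-negative replicate 3 as Irgm2 was. These are the 2 libraries with mitochondrial shares of 1.35% and 1.33%, whose part in these levels was not tested. The log2 differences were 0.19 (SE 0.27) for Irgm1 and 0.32 (SE 0.28) for Irgm2, and 0.044 and 0.16 without CD4-negative replicate 3.

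**Figure D4:**
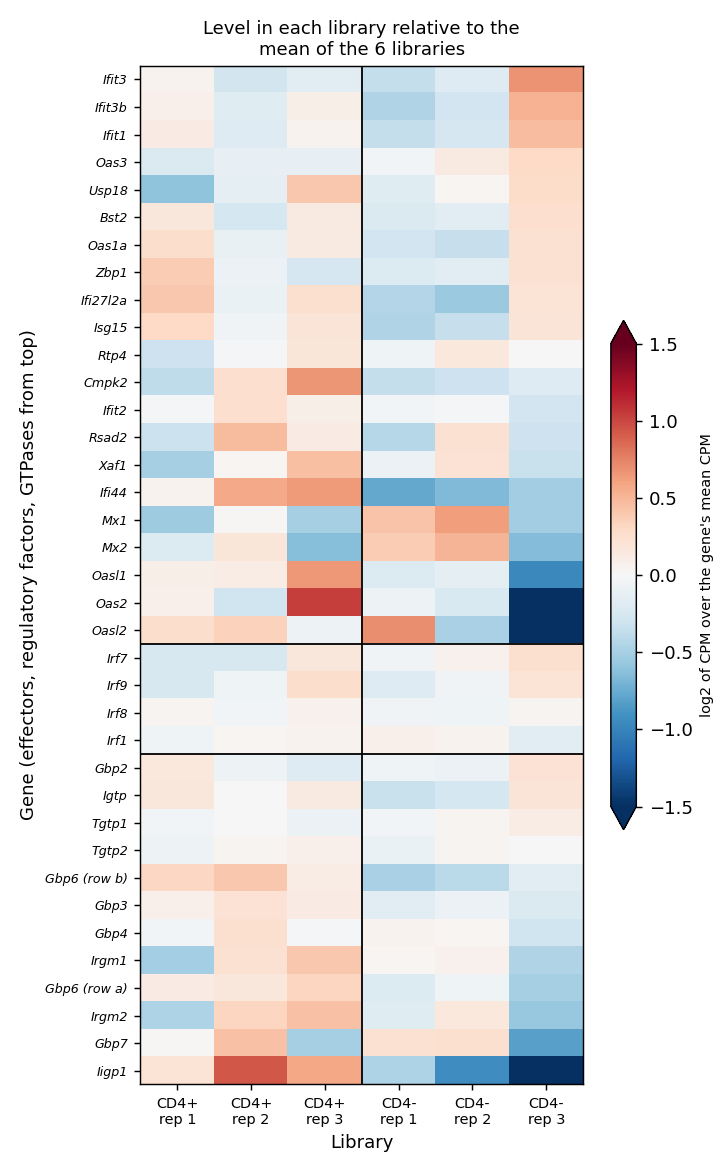
Level of each of the 37 rows (y axis, grouped by class) in each of the 6 libraries (x axis) as log2 of its CPM over the mean of the 6 libraries; red is above and blue below the gene's own mean, and colours end at 1.5. In CD4-negative replicate 3 the column runs from red (Ifit3, Ifit3b, Ifit1) to blue (Oasl1, Oas2, Oasl2, Gbp7, Iigp1), while Ifi44 is red or pale in all CD4-positive and blue in all CD4-negative libraries.

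The members did not share one order of the libraries. CD4-negative replicate 3 was the highest library for 9 of the 37 rows and the lowest for 12, and CD4-positive replicate 3 was the highest for 13 and the lowest for 3. Among type I genes the summed level was 913, 844 and 959 CPM in the CD4-positive and 782, 841 and 1043 CPM in the CD4-negative libraries. Among GTPases it was 1235, 1400 and 1269 CPM against 1195, 1247 and 1116 CPM. CD4-negative replicate 3 had thus the highest sum of type I genes and the lowest of GTPases. Without that library the median log2 difference was 0.20 over the type I genes and 0.11 over the GTPases, in place of 0.07 and 0.21. Without CD4-positive replicate 3 the type I median was -0.00229. The markers of double-positive thymocytes (8 genes, summed) were highest in CD4-negative replicate 3 at 225 CPM, followed by CD4-positive replicate 3 at 149 CPM, and stood at 35.6 to 112 CPM in the other libraries. The 6 markers of NK cells and innate lymphoid cells summed to 115 to 138 CPM in the CD4-positive and 236 to 263 CPM in the CD4-negative libraries. The 4 regulatory T cell markers summed to 63.9 to 80.7 against 30.5 to 40.5 CPM. Most of this came from Ikzf2 (32.5 to 36.5 against 13.9 to 14.6 CPM) and Il2ra (28.2 to 43.8 against 15.5 to 24.4 CPM). Foxp3 (0.13 to 1.20 CPM) and Ctla4 (0.15 to 0.52 CPM) overlapped between the groups. The 8 thymic stroma markers summed to 33.2 to 36.2 against 18.2 to 19.3 CPM, of which Pecam1 alone gave 30.6 to 33.8 and 15.2 to 16.7 CPM. The B cell markers summed to 0.48 to 1.47 against 2.39 to 3.01 CPM, with Cd79b at 0.33 to 0.80 against 2.02 to 2.43 CPM and Pax5 at 0. The myeloid markers summed to 1.60 to 1.89 against 1.70 to 3.21 CPM. The part of other cell types in the values of the members was not tested. In sorted bulk cells, fewer cells that express a gene and less RNA per cell cannot be told apart.

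The interferons themselves, apart from Ifng, were not detectable or nearly so at this depth. Of 21 listed interferon genes only Ifng had more than 3 counts in any library, and the other 20 had 3 counts together over the 6 libraries, all from 1 gene. Ifng was at 188, 39.7 and 40.7 CPM in the CD4-positive and 295, 73.4 and 101 CPM in the CD4-negative libraries (log2 -0.81, SE 0.75). It was highest in replicate 1 of each group. The summed GTPases stood at 1235 and 1195 CPM in those libraries, and at 1116 to 1400 CPM over the 6 libraries. The part of Ifng in the GTPase levels was not tested. Among the receptor chains Ifnar1 (69.8 to 118 CPM), Ifnar2 (45.2 to 72.2 CPM) and Ifngr1 (282 to 502 CPM) were well counted. Ifngr2, the signalling chain of the interferon gamma receptor, was at 0.66, 1.29 and 1.64 CPM in the CD4-positive and 0.60, 0.11 and 0 CPM in the CD4-negative libraries. These groups did not overlap (log2 2.31, SE 1.12, adjusted p = 1.0), and CD4-negative replicate 3 had a count of 0, which allows up to 0.0783 CPM.

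Of the 15 genes of receptors and signalling 14 were tested and 0 passed, with 7 above and 7 below 0 (median 0.02). Stat2 stood at 49.9 to 62.1 against 47.9 to 59.1 CPM. Irf4 stood at 6.21 to 6.27 against 4.43 to 5.04 CPM, and its groups did not overlap. Of 12 inhibitors 0 passed, 6 above and 6 below 0 (median -0.02). The dNTPase Samhd1 had the smallest p of these and lay on the lower side, at 181, 182 and 175 CPM against 257, 268 and 273 CPM (log2 -0.57, SE 0.14, adjusted p = 0.315 by edgeR).

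Of 12 nucleic acid sensors 11 were tested and 0 passed, with 8 above 0 (median 0.09). Tlr7, the endosomal receptor for single-stranded RNA, was at 7.67, 9.47 and 7.35 CPM against 4.78, 3.26 and 3.47 CPM (log2 1.09, SE 0.24, adjusted p = 0.235 by edgeR). Aim2, the cytosolic DNA receptor of an inflammasome, was at 46.6, 46.3 and 44.0 CPM against 26.3, 29.7 and 32.8 CPM (log2 0.62, SE 0.15, adjusted p = 0.352 by edgeR). Of 54 other interferon-stimulated genes 49 were tested and 0 passed, with 27 above 0 (median 0.03) and Slfn3 the smallest p (4.91 ± 0.92 against 2.61 ± 0.65 CPM). Of 18 other GBP and IRG genes 13 were tested and 0 passed, with 9 above 0 (median 0.04). Gbp9, a neighbour of Gbp4 and Gbp6 in the chromosome 5 cluster with which it may share reads, was at 219, 229 and 217 CPM against 156, 167 and 174 CPM (log2 0.42, SE 0.14, adjusted p = 0.727 by edgeR). Gbp10 was at 9.61 ± 2.32 against 6.58 ± 0.83 CPM. Of the Ifitm genes 4 of 4 tested were below 0 and 3 passed the test, Ifitm1 among them at 5.20 ± 1.47 against 36.8 ± 7.24 CPM (log2 -2.82, SE 0.26, adjusted p = 0.0214 by edgeR).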

How the data were processed

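Per the labels' protocols, a stranded TruSeq mRNA library was made from each RNA (RNeasy Plus Micro) and read from both ends (HiSeq4000). The authors deposited estimated counts per gene, not normalised; the submitters' processing notes list the tools STAR, Picard and RSEM and the build mm10. For versions, annotation and strand option the entry is: not given in the sources used here. All 6 columns were matched by library name. Counts were rounded, and the groups compared in R 4.3.3 with edgeR 4.0.16 (filterByExpr, TMM, robust quasi-likelihood F test, 2-sided, group alone, Benjamini-Hochberg at 0.05 over all genes), checked on simulated data. SE was derived from the F statistic. DESeq2 1.42.0 and voom of limma 3.58.1 were alternatives. In the simulated data a limit on false calls was set for edgeR and voom, but not for DESeq2. The adjusted p of DESeq2 covers the genes that its default filter kept. Libraries of a group differed by 55.6 or more in chi-square per degree of freedom, where sampling noise gives about 1. Exons and coordinates come from GENCODE M21 (GRCm38), in which 47224 identifiers were found.

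The members, classes and lists were chosen with earlier results of these data known, so no test was made over a list alone. The naming rule took the 3 highest means and 3 smallest p of each family, 30 rows; the other 7 rows are given too. In the lists it took the smallest p and the interferon, receptor and Stat2 genes; some genes it took are not reported here. The count for each list is over all genes tested.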

Additional observations from a re-analysis of the deposited data

How the results depend on the processing

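No member was called in 15 of the 17 alternatives. DESeq2 called 2 (Ifi44 and Iigp1), both when run on all genes with a count and when run on the genes kept by filterByExpr. The latter run was added after seeing the data. For Iigp1 these gave log2 1.64 and adjusted p = 0.0462 and 0.0420, and for Ifi44 adjusted p = 0.00381 and 0.000826. The 2 DESeq2 runs called 0.886% and 1.53% of the genes with an adjusted p. Among all genes tested, 27 passed, against 162 and 191 by DESeq2, 67 without a filter on low counts, 11 with the naming scheme as a batch term and 9 in the numbered-name libraries only (added after seeing the data; 2 against 2). With the replicate number as a block 0 genes passed, 531 by an unadjusted p under 0.05, and the members' smallest adjusted p was 0.281 by edgeR. The labels state no paired design, so the main comparison used group alone, though the library names match across the groups. Deviations from group means had correlations of -0.08, 0.35 and 0.04 between same-numbered libraries and of -0.35 to 0.25 between the others. With so few libraries these values cannot decide whether the libraries were paired. Leaving out 1 library gave 0 to 44 genes, the 44 without CD4-negative replicate 3 and 0 without any other, 0 members, type I medians of -0.00229 to 0.20 and GTPase medians of 0.11 to 0.26. The sign of 21 of 37 rows held in every alternative in which they were tested. The other 16 changed sign in at least 1 alternative, with differences of -0.24 (Ifit3) to 0.40 (Oasl2) over all libraries: without 1 library Irf1 ranged from -0.052 to 0.060, Irf9 from -0.14 to 0.13, Gbp2 from -0.16 to 0.055, Gbp7 from -0.19 to 0.28, Tgtp2 from -0.011 to 0.073, Ifit1 from -0.14 to 0.31, Ifit3 from -0.42 to 0.15, Ifit3b from -0.17 to 0.37, Oasl2 from -0.024 to 1.24, Bst2 from -0.029 to 0.22, Rtp4 from -0.19 to 0.048, Usp18 from -0.40 to 0.11, Xaf1 from -0.15 to 0.31 and Zbp1 from -0.13 to 0.23. In the numbered-name libraries only, Irf1 was at -0.073, Irf9 at -0.022, Gbp2 at 0.13, Irgm1 at -0.14, Irgm2 at -0.00840, Ifit3 at 0.17 and Xaf1 at -0.27. The cause of these changes was not tested. Depth limits Oasl2, Iigp1 and Oas2, with 6, 24 and 30 counts in their lowest library.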
